A study of Mus musculus with 12 samples.

Results

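Subcutaneous fat and liver of mice that had received an empty (null) virus were compared across all genes of the deposited count table, so that the tissue programs could be described without the overexpressed enzyme of the study. The libraries were taken by their labels. They were the 3 null fat and 3 null liver libraries, 6 of the 12 libraries in the series. Of 54532 genes in the table, 15259 had enough counts in the 6 libraries to be tested.

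The series asked what long-term overexpression of human hexokinase domain containing 1 (hHKDC1), a hexokinase family member, in hepatocytes does to the mouse, and the null animals were its controls. The vector was AAV8-TBGp, an adeno-associated virus whose promoter, that of thyroxine-binding globulin, is active in hepatocytes. Male mice were 10 weeks old when they received it into a vein, and the null form carried no hHKDC1. The mice were then kept on a low-fat diet for 16 weeks, so null fat and null liver shared the virus, the diet and the age. RNA of whole pieces of tissue was sequenced, and whether a fat library and a liver library came from the same mouse was not given. In such bulk samples, fewer cells of a type and less RNA per cell cannot be told apart.

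As background, hepatocytes make most plasma proteins, clear ammonia through the urea cycle, turn cholesterol into bile acids and release glucose and ketone bodies into the blood. White adipocytes store triglyceride in a large droplet coated with perilipins, release fatty acids from it when catecholamines raise cyclic AMP, and secrete hormones such as leptin and adiponectin. Both tissues make fatty acids from glucose, and many steps of carbon metabolism are carried by different gene copies in each of them.

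Total counts were 15496019 to 17117206 in null liver and 17721484 to 18630099 in null fat. In liver, 145 to 147 genes made up 50% of the counts, against 451 to 558 genes in fat. Levels are given below as CPM, the reads of a gene per 1e+06 reads of the library, after scaling by the trimmed mean of M values (TMM), and changes as log2 fold change of fat over liver with its standard error and an adjusted p of the edgeR quasi-likelihood test. A gene was called at an adjusted p under 0.05. At that threshold, 5163 genes were higher in fat (33.8% of those tested) and 4647 were higher in liver (30.5%), 64.3% in all, and the 3 fat values lay wholly above or below the 3 liver values for 10931 genes (71.6%). At least 2-fold differences were called for 4142 genes in fat (27.1%) and 3159 in liver (20.7%). The median log2 fold change of all tested genes was 0.09, and scaling by library size alone moved it to 0.98, with 9012 genes higher in fat and 2286 higher in liver, so a small difference below is relative to the TMM centre.

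**Figure D1:**
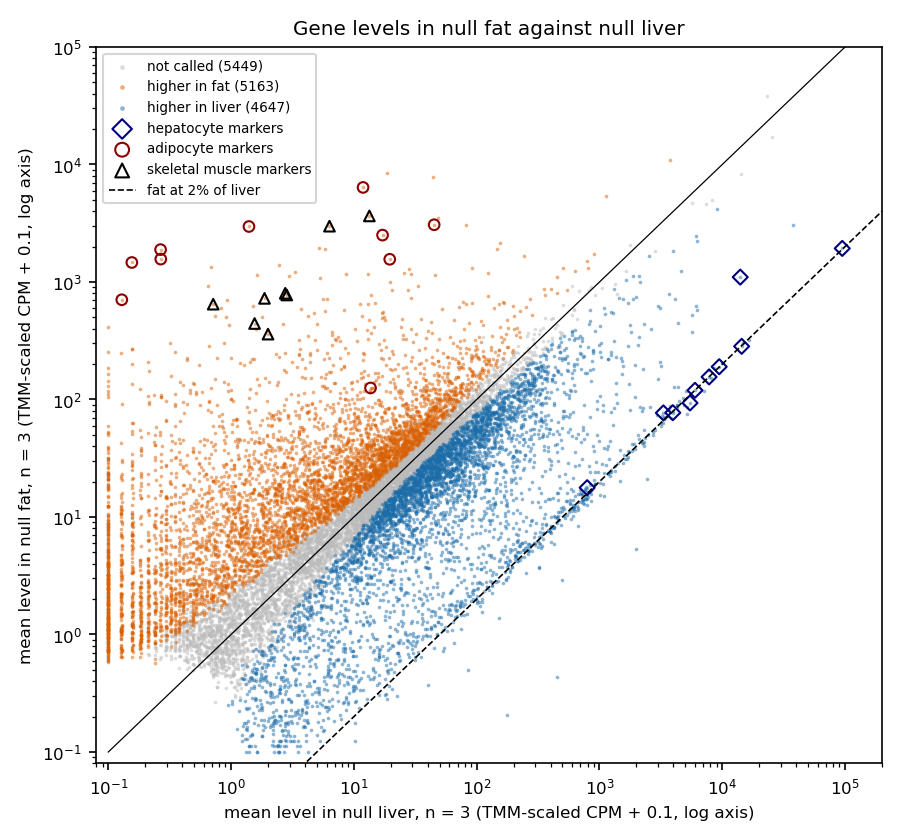
Mean TMM-scaled level of each tested gene in null liver (x axis) and null fat (y axis), 3 libraries each, on log axes in CPM with 0.1 added; the solid line marks equal levels and the dashed line a fat level at 2% of liver. Of the 10 hepatocyte markers, 9 lie along the dashed line at 1.71 to 2.32% and Cyp2e1 lies above it at 7.85%, while the 10 adipocyte markers lie far above equality.

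Marker genes followed the tissue labels in all 6 libraries. The 10 adipocyte markers summed to 18149 to 24842 CPM in fat and 76.9 to 146 CPM in liver, and the 10 hepatocyte markers to 156704 to 166356 CPM in liver. The fat libraries nevertheless held liver transcripts. The hepatocyte markers stood at a median of 1.23% of their mean liver level in fat replicate 1, 1.20% in replicate 2 and 3.73% in replicate 3. Of 1394 genes higher in liver with at least 100 CPM there, 495 had 1.14 to 11.8% of their liver level in fat. Another 892 had more and 7 had less. The limits are the marker range widened by a factor of 1.5 on each side. The upper end of that range is set by Cyp2e1 alone, at 7.85%, above the other hepatocyte markers. Of the 495 genes, 366 had at most 5%. A log2 fold change near -5.6 below therefore stands at the level that the hepatocyte markers share. Subtracting liver RNA library by library gave 5087 genes higher in fat and 4775 higher in liver. By its construction the subtraction takes genes at the marker level to near 0 counts in fat, so the fitted medians of 8 of the 11 liver lists below moved further towards liver and their sizes are not given. Those of complement (-3.66 to -4.08), ketogenesis (-3.68 to -4.12) and glucose output (-1.31 to -1.38) moved less.

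Fat replicates 1 and 2 also held skeletal muscle. The 8 muscle markers summed to 13871 and 16903 CPM in these libraries, 392 CPM in fat replicate 3 and 24.0 to 39.1 CPM in liver. Myh4, the myosin heavy chain of fast fibres, was at 4541, 6282 and 129 CPM in the 3 fat libraries and at 11.1 to 16.6 CPM in liver. Keratinocyte markers, which mark skin, summed to 198, 14.6 and 80.9 CPM in fat and 2.08 to 2.38 CPM in liver, and Krt5 was at 47.8, 2.94 and 18.2 CPM in fat and at 0 in every liver library. Results that rest on muscle or skin genes are given with these values beside them. With fat replicate 3 as the only fat library, 3692 genes were higher in fat and 3432 in liver. In that fit the spread comes from the liver libraries alone, and the lone fat library is assumed to vary like them.

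**Figure D2:**
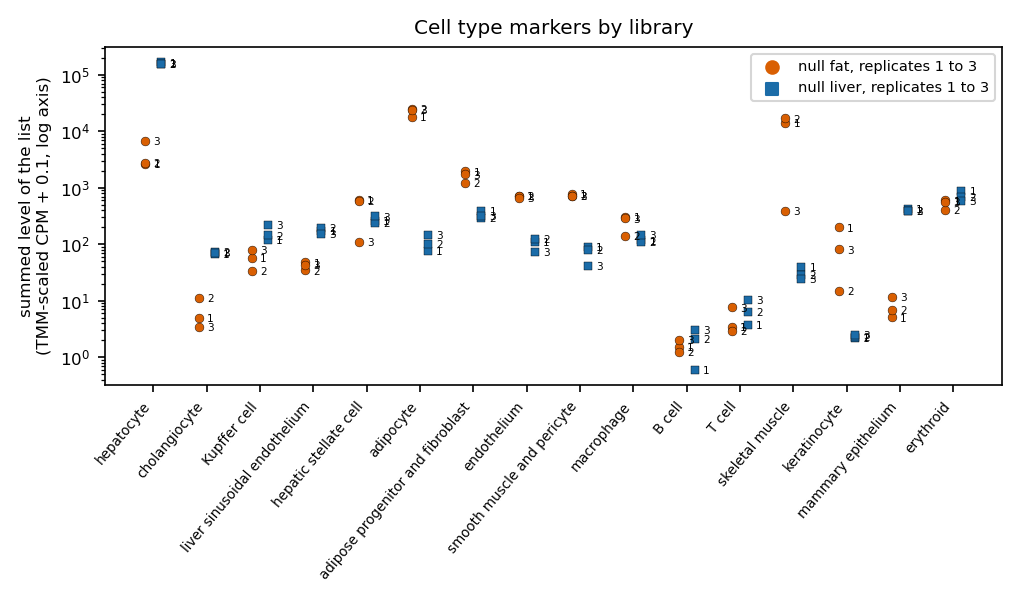
Summed TMM-scaled level of each cell type marker list (y axis, log scale, CPM with 0.1 added) in each null fat library (circles) and null liver library (squares), numbered by replicate. The muscle sum of fat replicate 3 (392 CPM) lies far below those of replicates 1 and 2 (13871 and 16903 CPM), and its hepatocyte sum lies above theirs.

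Secreted proteins of the liver were higher in liver for most genes. All 25 genes for plasma transport proteins and protease inhibitors were higher in liver, with a median log2 fold change of -5.63. Albumin (Alb, ENSMUSG00000029368, chr5:90460897-90476602 of GRCm38) had the highest level per length of any tested gene in liver. Alb was at 101262, 92226 and 91229 CPM in liver and at 1220, 1215 and 3360 CPM in fat. The groups did not overlap, fat replicate 3 was the highest of the fat libraries, and the difference was 49.1-fold (log2 -5.62 ± 0.66, SE, adjusted p = 0.000162). The members with the largest differences were Serpina7, which binds thyroid hormone, at -5.86, Itih2, an inter-alpha-trypsin inhibitor chain, at -5.76, Gc, which binds vitamin D, at -5.75, and Serpina6, which binds glucocorticoids, at -5.74.

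The smallest differences of this list were those of haptoglobin (Hp) and orosomucoid (Orm1), both acute-phase proteins. Hp was at 1467, 908 and 1380 CPM in fat and 3920, 4414 and 5538 CPM in liver, so that fat held 27.1% of the liver level. Orm1 was at 126, 175 and 248 CPM in fat and 737, 650 and 719 CPM in liver, 26.1% of the liver level. Both lay well above the percentages at which the hepatocyte markers stood in fat, in each of the 3 fat libraries.

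Of 25 coagulation genes, 22 were higher in liver and 3 in fat (median -5.60). Plasminogen (Plg) at -5.84, the carboxypeptidase Cpb2 at -5.83, factor V (F5) at -5.82 and fibrinogen alpha (Fga) at -5.77 differed most. The 3 genes that were higher in fat act at cell surfaces. Thrombomodulin (Thbd) was at 101, 70.3 and 76.4 CPM in fat and at 12.5, 13.03 and 6.73 CPM in liver (log2 2.94 ± 0.27, adjusted p = 4.87e-05). Tissue factor (F3), the trigger of the extrinsic pathway, was 2.74 ± 0.24 higher on the log2 scale, and its inhibitor Tfpi 1.52 ± 0.23. Factor VIII (F8) and protein S (Pros1), which endothelium also makes, were higher in liver but at 32.6% and 51.3% of the liver level in fat.

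Complement genes were divided. Of 25, 20 were higher in liver and 1 in fat, with a median of -3.66. C4bp at -5.80, C9 at -5.68, the lectin Mbl2 at -5.63 and Hc, which encodes C5, at -5.60 differed most. C3, the central component, was at 596, 450 and 534 CPM in fat and 5668, 5950 and 5496 CPM in liver, 9.24% of the liver level. Complement factor D (Cfd, adipsin), the protease that starts the alternative pathway, was the gene higher in fat, at 2219, 4026 and 2657 CPM against 1.08, 0.43 and 2.38 CPM in liver (log2 11.14 ± 0.69, adjusted p = 8.02e-06). The C1q chains C1qa, C1qb and C1qc and properdin (Cfp), which macrophages and other myeloid cells make, did not pass the test, with log2 differences of 0.30 to 0.65.

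Apolipoprotein and lipoprotein assembly genes were higher in liver for 21 of 24 (median -5.31), led by Apoc4 at -5.70, Apoa1 at -5.67, Apoh at -5.66 and Apob, the structural protein of very low density lipoprotein, at -5.65. Apoe was at 31918, 40763 and 40705 CPM in liver and at 2398, 3093 and 3754 CPM in fat, 8.15% of the liver level (log2 -3.62 ± 0.40, adjusted p = 0.000118). The phospholipid transfer protein Pltp was higher in fat (1.27 ± 0.25). Apod, which binds small lipids, had 2 counts over the 3 liver libraries and 34.6, 25.8 and 28.5 CPM in fat, a ratio of 530 with a 95% counting interval of 147 to 4382. 1 gene did not pass.

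**Figure D3:**
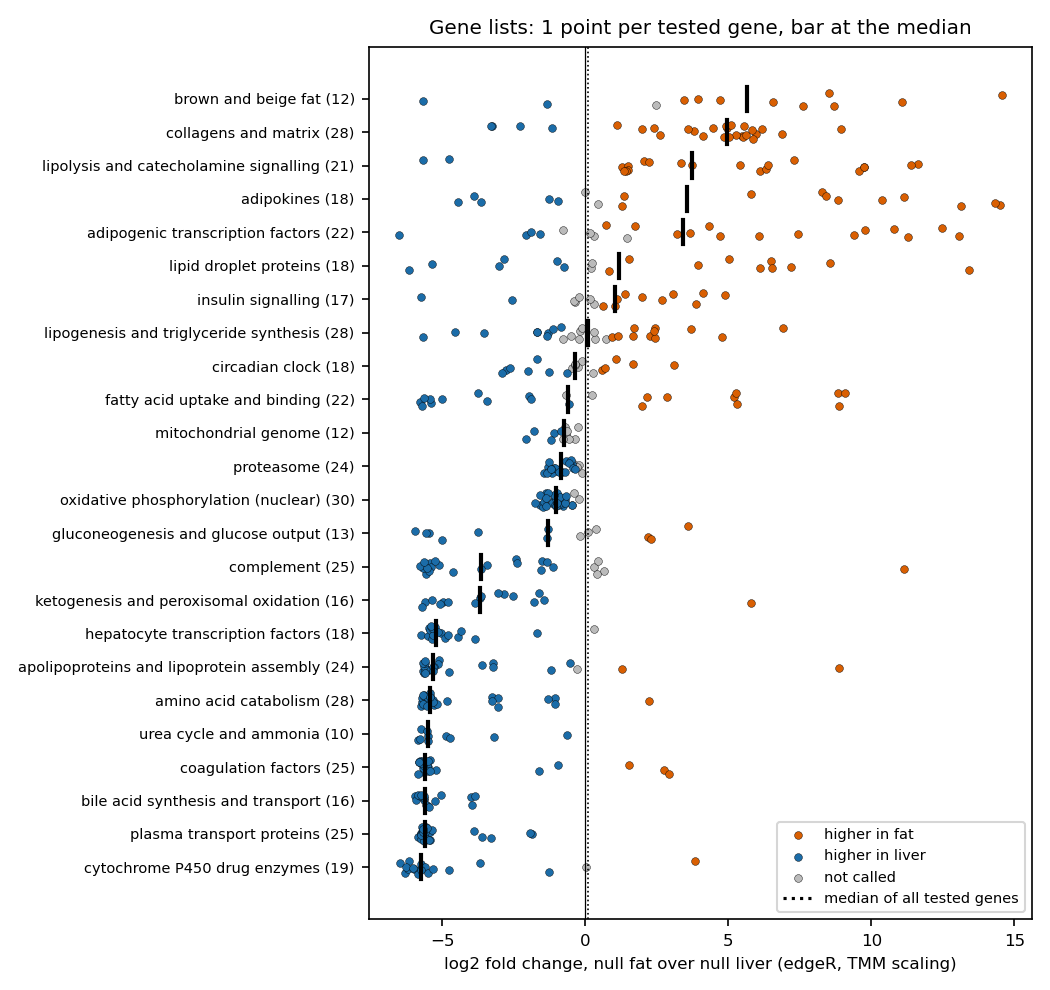
Log2 fold change of null fat over null liver (x axis) for each tested gene of 24 lists, with the number tested in parentheses, coloured by call, a bar at each list median and a dotted line at the median of all tested genes. Most lists of liver function have their median between -5.77 and -3.66, and the lists of oxidative phosphorylation, the proteasome and the mitochondrial genome sit between -1.03 and -0.75.

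Bile acid, ammonia and amino acid metabolism followed the same pattern. All 16 tested genes of bile acid synthesis and transport were higher in liver (median -5.62). Cyp7a1, the rate-limiting enzyme of bile acid synthesis, was at 112, 49.5 and 158 CPM in liver and 1.01, 0.35 and 3.63 CPM in fat (log2 -5.96 ± 0.79, adjusted p = 0.000329). Cyp7b1 of the alternative pathway at -5.92, the uptake carrier Slco1a1 at -5.87 and the bile acid ligase Slc27a5 at -5.77 followed. All 10 urea cycle and ammonia genes were higher in liver (median -5.50), with Cps1 at -5.87, Ass1 at -5.77, Otc at -5.75 and Nags at -5.54. Glutamine synthetase (Glul), which fixes ammonia in the last hepatocytes before the central vein and in many other tissues, was at 802, 1194 and 1123 CPM in fat and 1575, 1632 and 1713 CPM in liver (log2 -0.66 ± 0.22, adjusted p = 0.032), and its difference was 0.23 by library size alone. That call did not hold without null liver replicate 2 or 3, or without null fat replicate 1 or 2.

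Of 28 genes of amino acid catabolism, 27 were higher in liver (median -5.44), with Hgd of tyrosine breakdown at -5.71, Kynu of tryptophan breakdown at -5.70 and Aass of lysine breakdown at -5.68. Bcat2, the mitochondrial transaminase that starts the breakdown of branched-chain amino acids, was higher in fat. Bcat2 was at 107, 116 and 118 CPM in fat and 22.6, 23.3 and 26.4 CPM in liver (log2 2.23 ± 0.13, adjusted p = 6.28e-06). Both groups were tight and did not overlap.

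Glucose output divided into enzymes of the liver and enzymes of both tissues. Of 13 genes, 7 were higher in liver and 3 in fat (median -1.31). Igfbp1, a target of insulin and fasting signals, was at -5.94, fructose bisphosphatase 1 (Fbp1) at -5.56, glucose 6-phosphatase (G6pc) at -5.47 and the glucagon receptor (Gcgr) at -5.02. Pck1, which adipocytes use to make glycerol for triglyceride, was at 1988, 3159 and 2300 CPM in fat and 6484, 6561 and 5386 CPM in liver (log2 -1.31 ± 0.28, adjusted p = 0.00425). Pyruvate carboxylase (Pcx) was at 786, 902 and 882 CPM in fat and 816, 832 and 794 CPM in liver, and its log2 difference of 0.07 ± 0.17 did not pass. The catalytic subunit copy G6pc3 at 2.18, mitochondrial Pck2 at 2.31 and Fbp2 at 3.58 were higher in fat. Fbp2 is a muscle enzyme, lay at 4.76, 7.66 and 1.87 CPM in fat, and its log2 difference was 2.29 with fat replicate 3 as the only fat library.

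Ketogenesis and peroxisomal oxidation were higher in liver for 15 of 16 genes (median -3.68), with Cyp4a10 at -5.71, Acox2 at -5.61, Cyp4a14 at -5.35 and Bdh1 at -5.10. Oxct1, which uses ketone bodies rather than making them, was the gene higher in fat, at 272, 221 and 223 CPM against 3.50, 5.61 and 3.77 CPM in liver (log2 5.80 ± 0.24, adjusted p = 2.1e-06). Of 19 tested cytochrome P450 genes and their reductase, 17 were higher in liver (median -5.77), led by Cyp2c37 at -6.47, Cyp1a2 at -6.33, Cyp2c54 at -6.28 and Cyp2c29 at -6.19. The Cyp2c genes are near copies of each other, and how their shared reads were divided was not given. Cyp1b1 was higher in fat (3.84 ± 0.39), and Cyp2b10 was at 0.16 to 2.24 CPM and did not pass.

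The transcription factors that define hepatocytes were higher in liver for 17 of 18 (median -5.21). Hnf4a was at 710, 869 and 803 CPM in liver and 9.02, 13.3 and 30.7 CPM in fat (log2 -5.49 ± 0.49, adjusted p = 4.19e-05). Foxa1 at -5.47 and Foxa3 at -5.42 differed by a similar amount. Cebpa, which drives both hepatocyte and adipocyte genes, was at 856, 890 and 770 CPM in fat and 662, 644 and 726 CPM in liver (log2 0.31 ± 0.17, adjusted p = 0.156).

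Promoters are shown as the reference sequences in front of a leading gene of each tissue, Alb for liver and Adipoq for fat, as the 250 bases before the RefSeq start on the plus strand of GRCm38.p6. Capitals mark matches to 5 motifs searched on both strands, which were the HNF1 core GTTAATNAT, the full HNF1 site, the direct repeat that HNF4 and PPAR factors can bind, the C/EBP core TTGCNNAA and the TATA box TATAAA. Alb lies at chr5:90460620-90460869 and Adipoq at chr16:23146286-23146535.
Alb: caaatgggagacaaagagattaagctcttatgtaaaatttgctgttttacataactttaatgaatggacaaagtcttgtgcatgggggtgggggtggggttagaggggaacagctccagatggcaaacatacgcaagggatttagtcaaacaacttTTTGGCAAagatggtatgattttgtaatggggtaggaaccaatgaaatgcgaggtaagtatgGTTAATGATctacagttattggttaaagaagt
Adipoq: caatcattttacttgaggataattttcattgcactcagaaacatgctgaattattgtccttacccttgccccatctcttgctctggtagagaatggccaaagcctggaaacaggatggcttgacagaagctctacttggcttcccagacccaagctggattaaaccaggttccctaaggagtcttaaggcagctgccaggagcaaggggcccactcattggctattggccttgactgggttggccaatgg
Alb held an HNF1 core ending 24 bases before the listed start and a C/EBP core on the other strand at 87 bases, and Adipoq held none of the 5.

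Over all tested genes with a listed promoter, 73 of 11100 (0.658%) held the HNF1 core, against 49 of 2259 genes at least 2-fold higher in liver (2.17%) and 12 of 2996 at least 2-fold higher in fat (0.401%). Among genes at least 32-fold apart the shares were 25 of 409 in liver (6.11%) and 4 of 637 in fat (0.628%). The C/EBP core stood in 9.63% of all tested genes, 19.3% of the 32-fold liver genes and 11.8% of the 32-fold fat genes. TATA box shares were 8.79%, 20.3% and 14.1% in the same order. Over all 32851 promoters of the table, 0.737% held the HNF1 core, 9.56% the C/EBP core and 12.4% the TATA box. The full HNF1 site was found in 1 tested gene and the direct repeat in 6. The full HNF1 site contains the core, so these matches overlap. These shares describe letters in a window of fixed length and were not tested.

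Adipocyte genes gave larger differences, and the liver libraries held few counts of them. All 10 adipocyte markers were higher in fat. Adiponectin (Adipoq, ENSMUSG00000022878) was at 1283, 1676 and 1738 CPM in fat and had at most 0.42 CPM in a liver library. Leptin (Lep), the satiety hormone, was at 1626, 1067 and 1705 CPM in fat and had 2 counts over the 3 liver libraries, a ratio of 26462 with a 95% counting interval of 7325 to 218505. Resistin (Retn) was at 681, 653 and 784 CPM in fat and had 1 count in liver.

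Of 18 tested genes of the adipokine list, 11 were higher in fat and 5 in liver (median 3.56). Lep, Retn, Adipoq and Cfd led the list. The 5 that were higher in liver were angiotensinogen (Agt) at -4.45, retinol binding protein 4 (Rbp4) at -3.91, Fgf21 at -3.67, chemerin (Rarres2) at -1.29 and Nnmt at -0.94. Rbp4 was at 304, 296 and 526 CPM in fat and 5520, 5496 and 5901 CPM in liver, so fat held 6.66% of the liver level. Rarres2 was at 134, 155 and 159 CPM in fat and 358, 353 and 385 CPM in liver. The other 2 did not pass.

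Droplet proteins differed by type. Of 18 genes, 10 were higher in fat and 6 in liver (median 1.18). Plin1, which guards the adipocyte droplet, was at 1902, 1962 and 1795 CPM in fat and at 0.50, 0 and 0 CPM in liver. The caveolar genes Cav1 at 8.56 and Cavin1 at 6.52 and the droplet fusion protein Cidec at 7.20 were also among the highest. The other side held Cideb, which acts in lipoprotein assembly, at -6.16, Hsd17b13, a droplet protein of hepatocytes, at -5.38, Fitm1 at -3.04, Plin5 at -2.83, Plin2 at -0.99 and G0s2, an inhibitor of lipolysis, at -0.75, or 0.14 by library size alone. Plin3 at 0.21 and Hilpda at 0.25 did not pass.

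Of 21 genes of lipolysis and its catecholamine control, 19 were higher in fat (median 3.71, or 3.33 with the gene at 0 in liver set to its bound). The glycerol channel Aqp7, the prostaglandin receptor Ptger3, the protein kinase A subunit Prkar2b and the lactate receptor Hcar1 led the list. Prkar2b was at 681, 659 and 765 CPM in fat and 1.00, 1.21 and 0.25 CPM in liver (log2 9.74 ± 0.48, adjusted p = 3.22e-06). The receptors and lipases themselves went the same way. Adrb3, the adipocyte beta-adrenergic receptor, was at 210, 273 and 264 CPM in fat and 2.41, 3.71 and 11.6 CPM in liver. Hormone-sensitive lipase (Lipe) was at 1387, 1682 and 1612 CPM in fat and 15.3, 18.7 and 24.4 CPM in liver, and adipose triglyceride lipase (Pnpla2) at 1453, 2209 and 2120 against 141, 155 and 146 CPM. The alpha-adrenergic receptor Adra1b at -4.77 and the glycerol channel Aqp9, through which the liver takes glycerol up, at -5.69 were higher in liver.

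Fatty acid handling divided into a set for each tissue. Of 22 genes of uptake and binding, 9 were higher in fat and 11 in liver (median -0.62), and under scaling by library size alone the median was 0.28. The transport proteins Slc27a5 at -5.77 and Slc27a2 at -5.70, the medium-chain ligase Acsm1 at -5.63 and Fabp2 at -5.42 led in liver. Fabp4, the adipocyte binding protein, was at 4555, 7811 and 6777 CPM in fat and 11.6, 11.05 and 12.7 CPM in liver (log2 9.08 ± 0.39, adjusted p = 2.29e-06). Lipoprotein lipase (Lpl) was at 9052, 7398 and 8972 CPM in fat and 10.7, 15.8 and 29.4 CPM in liver, and Cd36 at 3250, 2906 and 2983 against 124, 56.0 and 67.6 CPM. Fabp3, the binding protein of muscle, was at 32.3, 53.5 and 1.09 CPM in the 3 fat libraries, high in the same libraries as the muscle markers, with a log2 difference of 8.85, or 4.16 with fat replicate 3 as the only fat library. The ligase Acsl1 was at 2027, 2247 and 1959 CPM in fat and 1505, 1768 and 2008 CPM in liver and did not pass (0.24 ± 0.22).

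Fatty acid and triglyceride synthesis held genes that went both ways. Of 28 genes, 11 were higher in fat, 9 in liver and 8 did not pass, beside 33.8%, 30.5% and 35.7% of all tested genes. The split of the list was thus near that of all tested genes. Its median was 0.08 beside 0.09 for all tested genes, with values from -5.69 to 6.91. The median ran from -0.10 to 0.38 when 1 library was left out. Stearoyl-CoA desaturase 1 (Scd1), which makes oleate, had the third highest level per length in fat. Scd1 was at 37052, 44349 and 32428 CPM in fat and 34920, 17857 and 16298 CPM in liver (log2 0.72 ± 0.45, adjusted p = 0.194). The value of null liver replicate 1 lay within the fat range and the other liver values below it. Fatty acid synthase (Fasn) was at 6489, 5405 and 4207 CPM in fat and 2149, 772 and 466 CPM in liver (log2 2.25 ± 0.56, adjusted p = 0.00824). ATP citrate lyase (Acly) was at 687, 562 and 328 CPM in fat and 1039, 348 and 393 CPM in liver, and malic enzyme (Me1) at 804, 592 and 522 against 908, 299 and 310 CPM. Neither passed.

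**Figure D4:**
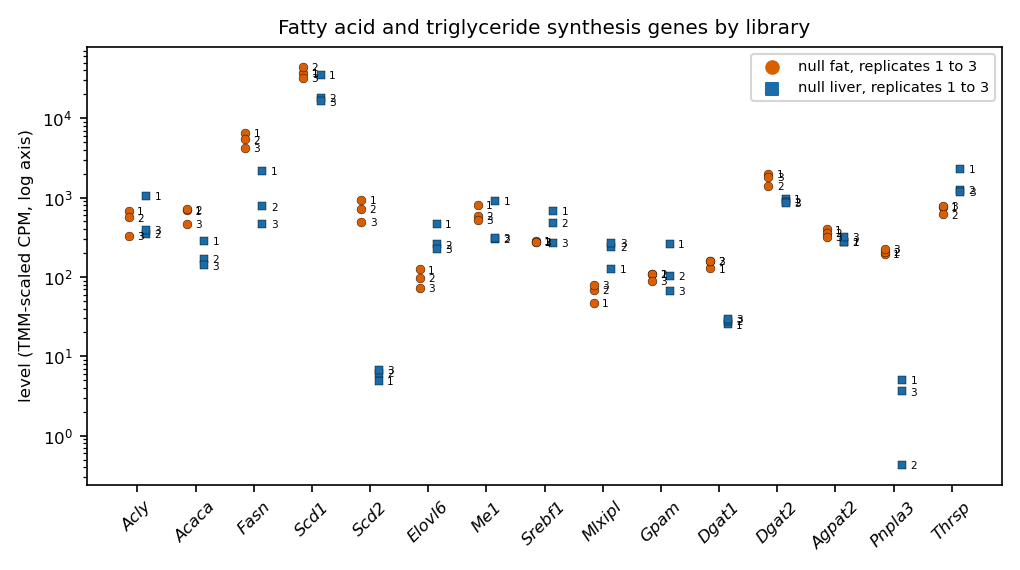
TMM-scaled level in CPM (y axis, log scale) of fatty acid and triglyceride synthesis genes in each null fat library (circles) and null liver library (squares), numbered by replicate. Null liver replicate 1 is the highest of the liver libraries for Acly, Acaca, Fasn, Scd1, Elovl6, Me1, Srebf1, Gpam and Thrsp and the lowest for Mlxipl.

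Null liver replicate 1 differed from the other liver libraries for part of this pathway. Its level was over 2 times the mean of null liver replicates 2 and 3 for 5 of the 23 genes of the list with at least 10 CPM in liver (21.7%), against 47 of 8099 tested genes at that level (0.58%). The median ratio was 1.69 for those genes of the list and 1.06 for the tested genes. Of all 28 genes, 8 were lower in null liver replicate 1 than that mean, Mlxipl and Scd2 among them. Without null liver replicate 1, Scd1 and Me1 were higher in fat, for 13 genes higher in fat and 9 in liver. Scd1 was also called without null fat replicate 3. Genes that did separate the tissues in fat were Scd2 at 6.91, Mogat2 at 4.78, Scd3 at 3.69, or 6.09 without null liver replicate 1, and the acyltransferase Gpat3 at 2.44. The elongase Elovl3 at -5.69, the phosphatase Lpin2 at -4.56, Elovl5 at -3.55 and the carbohydrate-sensing factor Mlxipl at -1.69 were the most shifted to liver.

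Paired forms of 25 metabolic steps were compared, each with a form usually found in liver and another usually found in fat or muscle. In 18 pairs the former was higher in liver and the latter higher in fat. Within liver, the liver form had the higher level per kilobase in every library for 22 pairs, and within fat the other form did so for 16. The pairs shown number 21, of which 16 had the former higher in liver and the latter higher in fat. The others are not reported here.

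**Figure D5:**
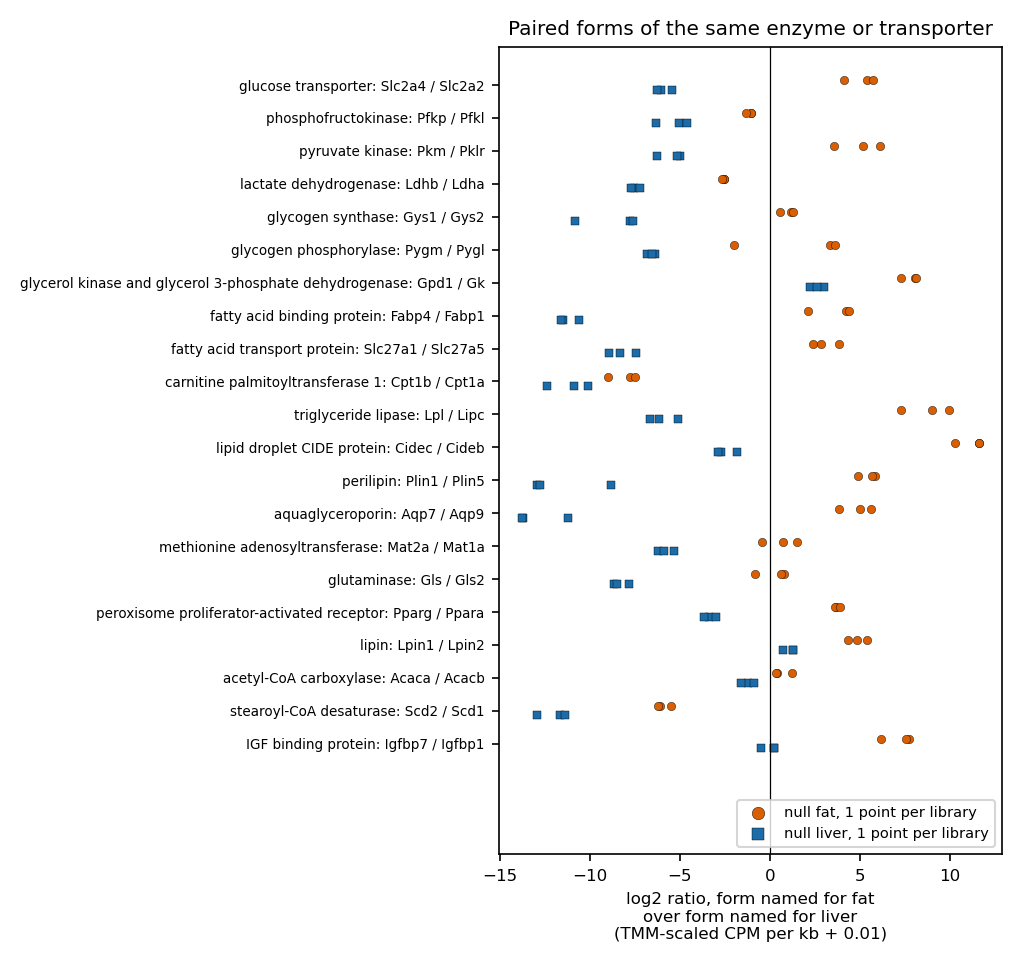
Log2 ratio (x axis) of the TMM-scaled level per kilobase of the form named for fat over the form named for liver, with 0.01 added, for 21 pairs, in each null fat library (circles) and null liver library (squares). All fat libraries lie right of 0 in 14 pairs and all liver libraries left of 0 in 18.

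Glucose entry and glycolysis showed the exchange at some steps. In fat, the insulin-regulated transporter Slc2a4 was at 56.7 CPM per kilobase and Slc2a2 at 1.77, and in liver Slc2a2 was at 107 and Slc2a4 at 1.90. Hk2 was at 133, 135 and 87.4 CPM in fat and 0.67, 0.09 and 1.80 CPM in liver. Hk1 was also higher in fat (log2 2.77 ± 0.19, adjusted p = 1.22e-05), and mouse Hkdc1, whose human form the study overexpressed, had 8 counts over the 3 fat libraries and 13 over the 3 liver libraries and was not tested. Pkm was the higher form than Pklr in every fat library, at 559, 607 and 271 CPM, with the lowest value in fat replicate 3, the library with few muscle transcripts. The part of muscle in this was not tested. Phosphofructokinase broke the pattern, because the liver form Pfkl was higher in fat (1.01, adjusted p = 0.000287) and exceeded Pfkp there, at 12.996 against 5.94 CPM per kilobase. Ldhb was 4.33 higher in fat on the log2 scale, but Ldha remained the higher form in both tissues.

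Lipid steps showed the exchange as well. Fabp1 was at 6751 CPM per kilobase in liver and 159 in fat, and Fabp4 at 1421 in fat and 2.62 in liver. Cideb and Cidec, Lipc and Lpl, Aqp9 and Aqp7, and Ppara and Pparg were each exchanged in every library of both tissues, with the smallest margin of these for Cideb, 5.41-fold above Cidec in liver. Acaca exceeded Acacb 1.55-fold in fat and Acacb exceeded Acaca 2.35-fold in liver, in every library of each, although between the tissues Acacb did not pass (-0.22) and Acaca was higher in fat (1.65 ± 0.31). Gys1 exceeded Gys2 in every fat library. Muscle glycogen phosphorylase (Pygm) exceeded the liver form Pygl in fat replicates 1 and 2 but not in replicate 3, the library with few muscle transcripts. Cpt1b, the muscle form, was too low to be tested, and Cpt1a was the higher form in both tissues.

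In other pairs the same form was the higher in both tissues, or the order was not the same in every library. Lpin1 was higher in liver (-0.86, or 0.03 by library size alone) and was the higher form in both tissues. Igfbp7 was higher in fat (1.10) and Igfbp1 in liver (-5.94), but Igfbp1 did not exceed Igfbp7 in every liver library. Gpd1 was higher in fat and glycerol kinase (Gk) in liver, but Gpd1 exceeded Gk in both tissues.

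Insulin signalling genes were higher in fat for 10 of 17 tested and in liver for 2 (median 1.02). Slc2a4 at 4.89, the adaptor Grb10 at 3.88 and Tbc1d4, which holds transporter vesicles until insulin acts, at 3.05 were among these. Irs1 was at 19.8, 21.4 and 20.4 CPM in fat and 11.8, 8.37 and 8.53 CPM in liver (1.10 ± 0.19, adjusted p = 0.00124). The other 5, the insulin receptor and Akt1 among them, did not pass. Igf1 at -2.57 and Igfbp2 at -5.73 were higher in liver.

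Adipogenic transcription factors were higher in fat for 14 of 22 (median 3.42). Hoxc8, Hoxc9, Hoxc10 and Ebf3 had no count in any liver library. Hoxc8 was at 70.0, 57.2 and 49.2 CPM in fat, at least 234-fold higher when liver is set to 3 counts per library, and Ebf3 at 43.5, 36.3 and 36.4 CPM, at least 154-fold higher. Pparg, the master factor of adipocytes, was at 135, 121 and 119 CPM in fat and 14.3, 10.9 and 15.5 CPM in liver (3.21 ± 0.17, adjusted p = 4.77e-06). Klf15, Cebpb, Rxra and Tcf21 were higher in liver, by -1.92, -2.08, -1.60 and -6.50. The other 4, Cebpa among them, did not pass.

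The table annotates 1469 genes as transcription factors, of which 975 were tested. Of these, 372 (38.2%) were higher in fat and 187 (19.2%) in liver, beside 33.8% and 30.5% of all tested genes, with a median of 0.32. The homeobox family stood at 49 of 73 higher in fat and 11 in liver, with a median of 2.73. With a mean of at least 10 CPM in a tissue, the factors shifted most to fat included Hoxc8, Ebf3, Meox2, Hoxd8, Hoxc6, Shox2 and Hoxc10, all at 0 in liver, with bounds of at least 67.6-fold to 234-fold. Those shifted most to liver included Hnf4a, Foxa1, Foxa3, Creb3l3, Nr1i2, Foxa2 and Gata4, at -5.49 to -5.35. Hox genes keep a record of body position, and Meox2 also acts in muscle.

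Brown and beige fat genes were mixed. Ucp1, the uncoupling protein that defines brown fat, was at 0.08, 0.87 and 0.04 CPM in the fat libraries and was not tested, as were Dio2, Tmem26, Tnfrsf9, Zic1 and Bmp8b. Of the 12 tested, 9 were higher in fat (median 5.64, or 4.32 with the genes at 0 in liver set to their bounds). The median ran from 5.30 to 6.64 when 1 library was left out, with 6.64 without null liver replicate 2, 6.24 without null liver replicate 3 and a value between these without null fat replicate 2, and was 1.59 by limma on log2(FPKM + 1). Slc36a2, an amino acid carrier of fat, was at 173, 173 and 152 CPM in fat and 0 in liver, at least 660-fold higher. Otop1 was at 17.4, 19.4 and 7.53 CPM and Lhx8 at 3.12, 3.07 and 2.28 CPM, both at 0 in liver. Cox8b was at 25.5, 62.8 and 12.1 CPM against 0.08 to 0.09 CPM in liver. Each of these genes was lowest in fat replicate 3, the library with few muscle transcripts. The part of muscle in this was not tested. Cox7a1, a subunit shared with muscle, was at 12.4, 17.7 and 1.91 CPM, with a log2 difference of 3.44, or 1.03 with fat replicate 3 as the only fat library. 1 gene did not pass, and Elovl3 and Ppargc1a (-1.34) were higher in liver.

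Matrix genes were higher in fat for 24 of 28 (median 4.93). Lysyl oxidase (Lox), which cross-links collagen, was at 156, 156 and 111 CPM in fat and 0.17, 0.43 and 0.25 CPM in liver (8.94 ± 0.31, adjusted p = 1.28e-06). Col15a1 at 6.88, Sparc at 6.18 and Col5a2 at 5.98 followed. Fibronectin (Fn1), a plasma protein when it comes from hepatocytes, was at 330, 101 and 164 CPM in fat and 2035, 1932 and 1844 CPM in liver (-3.29 ± 0.44). Col18a1 at -2.29 and Col27a1 at -3.25 were also higher in liver, as was Col14a1 at -1.16 (adjusted p = 0.0315), whose call was lost in 5 of the 6 fits that each left out 1 library. Endothelial markers were higher in fat for 6 of 6, and 3 of 6 macrophage markers were.

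Kupffer cell markers were higher in liver for 4 of 6, with Clec4f at 52.1, 59.6 and 92.6 CPM in liver and 1.22, 0.39 and 3.41 CPM in fat. Cd163, which other macrophages share, was higher in fat (1.66). Stellate cell markers were higher in liver for 5 of 6, the exception being desmin (Des), a muscle protein, at 500, 535 and 31.4 CPM in the fat libraries. Sinusoidal endothelium markers were higher in liver for 5 of 6. B cell markers were near 0, with sums of 2.95 CPM or less in any of the 6 libraries.

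Energy and housekeeping complexes were shifted to liver by small amounts. Of 30 nuclear genes of oxidative phosphorylation, 27 were higher in liver and 0 in fat (median -1.03), led by Cox7b at -1.77, Ndufa4 at -1.60, Sdhd at -1.58 and Uqcrb at -1.48. Scaled by library size alone, 8 were higher in liver and 3 in fat, with a median of -0.15. Of 24 proteasome genes, 20 were higher in liver and 0 in fat (median -0.86), led by Psmb4 at -1.46, Psmb6 at -1.35, Psmb1 at -1.31 and Psmb5 at -1.26. Under the same scaling 4 were higher in liver and 8 in fat, with a median of 0.03, so the direction of the proteasome list depended on the scaling.

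Transcripts of the mitochondrial genome were higher in liver for 5 of 12 tested (median -0.75, or 0.13 by library size alone). They were lower in fat replicate 3 than in the other fat libraries, with mt-Co1 at 19338, 20040 and 12032 CPM in fat and 24714, 25309 and 25951 CPM in liver. Without fat replicate 3, 9 of 13 were higher in liver. Muscle markers were also lower in fat replicate 3, and their part in this was not tested.

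Clock genes showed no common direction, with 5 of 18 higher in fat and 7 in liver (median -0.36, or 0.53 by library size alone). Ciart at -2.91, Bhlhe40 at -2.65 and Hlf at -2.003 were higher in liver. Nr1d1, the repressor REV-ERB alpha, was at 149, 166 and 93.0 CPM in fat and 58.7, 51.7 and 18.6 CPM in liver (1.66 ± 0.42, adjusted p = 0.00841). Arntl, which encodes BMAL1, was among the 6 genes that did not pass. The time of day of collection was not given.

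Across all genes, the 10 called differences most shifted to fat at 10 CPM or more were those of Apol6, Glb1l2, Lgals12, Slc36a2, Lep, Slc7a10, Retn, Cdsn, Ankef1 and Tshr. Except for Lep and Retn, these had no count in liver. Apol6, an apolipoprotein L family member, was at 317, 486 and 429 CPM in fat, at least 1633-fold higher. The others at 0 in liver were at least 443-fold higher, which is the bound of the thyrotropin receptor (Tshr). Lgals12, a galectin of the fat droplet, was at 151, 195 and 206 CPM. Cdsn encodes a skin adhesion protein but was even between the fat libraries, at 131, 135 and 126 CPM, unlike the keratinocyte markers.

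Differences to liver were smaller, and the fat libraries held the liver transcripts described above. Called genes at 10 CPM or more were ranked, leaving out Mup, Cyp2c and similar gene families and the Gm gene models. The 10 largest differences began with Mug4-ps at -6.86, Gdf2 at -6.57 and the glutamate carrier Slc1a2 at -6.44. They went on with Ugt3a1, Nat8f5, Ces2c, Cyp1a2, the bilirubin-conjugating enzyme Ugt1a1, Slc22a28 and Cyp2a5 at -6.18. The 16 genes left out at these ranks were Mup, Cyp2c and Gm genes, and 7 of them had larger differences than Mug4-ps. Slc1a2 was at 326, 341 and 298 CPM in liver and 2.19, 1.77 and 7.04 CPM in fat. Gdf2, which encodes BMP9, was at 16.3, 12.3 and 27.1 CPM in liver and 0.21, 0.04 and 0.30 CPM in fat.

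By level per length, the mitochondrial genes mt-Co1, mt-Cytb, mt-Nd1 and mt-Nd2 were among the 10 highest in both tissues. So was Gm23935, a 57-base gene annotated as a miRNA, whose short length raises its level per kilobase. Fat added Scd1, Cfd, mt-Nd6, mt-Nd4 and carbonic anhydrase 3 (Car3), and liver added Alb, Apoa2, Apoe, Mup3 and Apoa1. Car3 was at 11137, 10631 and 10814 CPM in fat and 3514, 3973 and 3735 CPM in liver (1.54 ± 0.27, adjusted p = 0.00136). At 0 counts in liver and at least 1 CPM in each fat library were 201 genes, and 9 genes showed the reverse.

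The genes that varied most within a tissue were named by their spread alone. In fat these were the muscle genes Myh1, Myh2, Ryr1 and Xirp2 and the gene model Gm21320, which was at 0, 0.17 and 63.2 CPM in fat. In liver, Mup19 was at 369, 986 and 6.15 CPM, and shares reads with near copies. Myc, a growth factor response gene, was at 2.33, 2.33 and 91.8 CPM in liver and at 8.47, 6.45 and 9.10 CPM in fat, so null liver replicate 3 alone stood above fat. Moxd1 (8.82, 1.55 and 64.7 CPM), Gm42047 and Tff3 were also highest in null liver replicate 3.

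The same contrast was made in the 6 hHKDC1 OE libraries, which share no sample with the null libraries. There 4931 genes were higher in fat (31.2%) and 4030 in liver (25.5%) of 15817 tested. Of 14853 genes tested in both, 3825 of 4948 genes higher in null fat were also higher in hHKDC1 OE fat (77.3%), and 3559 of 4600 higher in null liver were higher in hHKDC1 OE liver (77.4%). For differences of at least 2-fold the share was 6132 of 7039 (87.1%). Only 15 genes were called in opposite directions, among them the immune genes Cd4, Cxcl16, Itgal and Ighg1. B cell markers summed to 549 and 403 CPM in hHKDC1 OE fat replicates 1 and 3 and to at most 2.95 CPM in a null library, when all 12 libraries were scaled together.

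A test of whether the tissue difference itself changed with hHKDC1 OE called 0 of 17070 genes (0%) by edgeR, with 2163 at an unadjusted p under 0.05. DESeq2 called 497, and edgeR called 1211 without hHKDC1 OE fat replicate 2. Muscle, B cell and T cell marker sums of that library, at 846, 30.8 and 23.2 CPM, were the lowest of the hHKDC1 OE fat libraries. Their part in these counts was not tested.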

How the data were processed

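Gene counts of 12 libraries were deposited, 3 for each tissue and vector, made by the authors from paired reads of non-stranded libraries aligned with STAR 2.5 (the methods add a later version) and counted with HTSeq 0.6.1, per the labels. The methods name the human genome, but the gene identifiers and positions are of the mouse. Gene positions match GRCm38 (98.1% at the same position in GENCODE M21). Without strand, overlapping and antisense genes cannot be told apart. The authors also deposited FPKM per library, used here in 2 alternatives, and their own fold changes and p-values, which were not used.

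Null fat was compared with null liver in edgeR 4.0.16 (R 4.3.3) with filterByExpr, TMM scaling and the quasi-likelihood test, Benjamini-Hochberg adjusted over all genes tested. Scripts were tested on simulated data. The labels do not tie libraries to mice, and p-values measure the spread between these libraries. For the RNA sequencing of fat the paper gives 3 mice per group. It gives no such number for the liver libraries, whose spread may be technical. Labels carry no batch or date. Some hHKDC1 OE samples are described as knockouts although their treatment label says overexpression, and the title set their group. Folds against a tissue at 0 use 3 counts per library, and intervals (95%, Clopper-Pearson) cover counting error only.

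The comparison and gene lists were chosen with earlier results of these data known. Genes named are the 10 highest per length in each tissue, the 10 largest called changes each way (at least 10 CPM, without Mup, Serpina1, Cyp2c, Cyp2d, Cyp3a, Gm and Rik genes), both members of each pair shown, up to 4 leading members of each list plus exceptions, markers, and the 5 most variable in each tissue. Some items that this rule selects are not reported here. Others were chosen after their values were seen. Promoters came from RefSeq (GRCm38.p6), where 11100 of 15259 tested genes were matched by symbol. Alternatives were DESeq2 1.42.0, 3 other scalings, 2 filters, all 12 libraries in 1 fit, a replicate block, limma 3.58.1 on log2 FPKM with a pseudocount of 1 or 0.1, a test against 2-fold and leaving out each library, and 2 chosen after seeing the data, which were fat replicate 3 alone and subtraction of liver RNA.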

Additional observations from a re-analysis of the deposited data

How the results depend on the processing

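Scaling by library size alone gave 9012 genes higher in fat and 2286 in liver, with 7140 and 1766 at least 2-fold apart. Genes at least 2-fold higher in fat numbered 2353 with at least 10 counts required in every library and 2509 by limma on log2(FPKM + 1). No other alternative moved these 4 counts by more than 1.5 times. Leaving out 1 library gave 4801 to 5185 genes higher in fat and 4082 to 4565 in liver. Without null fat replicate 3, the list medians went to -6.29 for plasma transport proteins, -6.31 for coagulation, -5.89 for apolipoproteins, -6.17 for bile acids, -6.00 for the urea cycle, -6.02 for amino acid catabolism and -6.47 for P450 genes. A tissue difference that changed with hHKDC1 OE was called for 497 genes by DESeq2, and for 0 to 1211 genes when 1 library was left out.

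Under library size alone these log2 values turned positive: the list medians of fatty acid uptake (0.28), the mitochondrial genome (0.13), the proteasome (0.031) and the clock (0.53), and the genes Acacb (0.67), Acly (0.73), Arntl (0.63), G0s2 (0.14), Glul (0.23), Gm23935 (0.052), Gpam (0.42), Itgal (0.024), Ldha (0.29), Lpin1 (0.027), Srebf1 (0.13), mt-Co1 (0.31), mt-Cytb (0.10), mt-Nd1 (0.15), mt-Nd4 (0.21) and mt-Nd6 (0.24). Requiring 10 counts in every library, which removes genes near 0 in liver, turned the adipokine median to -0.34 and the brown and beige median to -3.37, and moved those of adipogenic factors from 3.42 to 0.37, lipolysis from 3.71 to 1.64 and droplet proteins from 1.18 to 0.67. The adipokine median of 3.56 was 2.35 with no filter and 4.46 by library size alone. By limma it was 1.69 or 3.20 with a pseudocount of 1 or 0.1. With a pseudocount of 1, limma also gave smaller medians for hepatocyte factors (-3.30), adipogenic factors (1.81), lipolysis (2.17) and matrix genes (3.85). The brown and beige median of 5.64 was 4.77 with no filter, 4.91 by DESeq2, 4.74 with all 12 libraries, 6.51 by library size alone, 1.59 or 3.53 by limma and 5.30 to 6.64 when 1 library was left out. Leaving out 1 library each time changed the sign of some genes, with log2 differences from -0.46 to 0.11 for Acacb, -0.46 to 0.49 for Acly, also positive without null fat replicate 3, and -0.85 to 0.26 for Gpam (positive without null liver replicate 1), -0.50 to 0.25 for Arntl, -3.59 to 1.06 for Gm42047 and -2.57 to 1.76 for Myc (positive without null liver replicate 3), -0.10 to 0.76 for C1qa (negative without null liver replicate 1 or null fat replicate 3) and -0.52 to 0.54 for Cyp2b10 (negative without null liver replicate 3 or null fat replicate 2). The cause was not tested.

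The replicate number as a block gave 5176 genes higher in fat and 4762 in liver, and 0 for the change with hHKDC1 OE. Deviations of same-numbered fat and liver libraries correlated at 0.241, 0.0282 and 0.139, and those of differently numbered libraries at -0.19 to 0.0446. So few libraries cannot settle whether the numbers mark pairs. The numbers were not taken as pairs because the labels do not tie libraries to mice. Counts near 0 limit what can be said of liver levels of fat genes.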
